A study of Rattus norvegicus with 2 samples.

Results

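The genes described here are 9 transcription factor genes of inhibitory neurons, chosen by symbol from the gene tables of both libraries: Lhx6 (ENSRNOG00000005996), Sox6 (ENSRNOG00000020514), Dlx1 (ENSRNOG00000001520), Dlx6 (ENSRNOG00000010822), Prox1 (ENSRNOG00000003694), Npas1 (ENSRNOG00000015376), Meis1 (ENSRNOG00000004606), Meis2 (ENSRNOG00000004730) and Pbx3 (ENSRNOG00000022162). They are 9 of 25399 genes in the tables, and all 9 had unique molecular identifiers (UMIs, each standing for 1 captured RNA molecule) in both libraries. The study modelled methamphetamine (METH) sensitization in male Sprague-Dawley rats aged 8 weeks, and sequenced RNA of single nuclei from the orbitofrontal cortex. The METH group received 1 mg/kg METH by intraperitoneal injection for 7 days and the saline group received saline for the same time. Each group had 4 animals and 1 library, and no source used here says how the tissue of the animals was pooled.

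Cortical interneurons, the local inhibitory cells that release GABA, are born outside the cortex in the ganglionic eminences of the ventral forebrain. Cells of the medial eminence use Lhx6, a LIM homeobox factor, and its downstream partner Sox6, a SoxD factor, and become Pvalb and Sst interneurons. Cells of the caudal eminence keep Prox1, a prospero homeobox factor, and become Vip, Sncg and most Lamp5 interneurons. Dlx1 and Dlx6 are distal-less homeobox factors of nearly all forebrain GABAergic lineages, and Npas1 is a basic helix-loop-helix PAS repressor of subsets of them. Meis1, Meis2 and Pbx3 belong to the TALE homeobox family, whose Meis and Pbx proteins bind DNA together. They mark the lateral eminence, which supplies the striatum and the olfactory bulb, and Meis2 is also used by cortical projection neurons.

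Promoter sequences were at hand for 5 of the 9 genes (Lhx6, Sox6, Dlx1, Npas1 and Meis1), from RefSeq on the rat build GRCr8. The 300 bases around the annotated start are printed 5′ to 3′ on the gene's strand for Lhx6 and Sox6, which had their highest interneuron levels in the same subclasses, and for Meis1, one of the genes that set a group of METH nuclei apart. The motifs TGACAG (Meis type), TAATTA (homeodomain type), ACAATG (Sox type) and TGATTGAT (Pbx type) were searched on both strands, and capitals mark a match on either strand.
Lhx6, chr3:39853374-39853673, minus strand: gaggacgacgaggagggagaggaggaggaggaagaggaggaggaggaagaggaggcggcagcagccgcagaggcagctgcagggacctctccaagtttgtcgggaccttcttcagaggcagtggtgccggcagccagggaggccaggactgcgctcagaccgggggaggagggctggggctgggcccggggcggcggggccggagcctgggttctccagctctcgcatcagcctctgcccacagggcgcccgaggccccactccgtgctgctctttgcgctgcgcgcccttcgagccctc
Sox6, chr1:179665322-179665621, minus strand: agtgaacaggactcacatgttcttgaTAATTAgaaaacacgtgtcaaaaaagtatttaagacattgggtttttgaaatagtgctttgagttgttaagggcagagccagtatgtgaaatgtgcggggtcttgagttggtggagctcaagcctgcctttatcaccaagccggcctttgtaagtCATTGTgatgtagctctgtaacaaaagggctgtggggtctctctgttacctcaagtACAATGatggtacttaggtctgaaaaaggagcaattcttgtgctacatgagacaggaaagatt
Meis1, chr14:97495034-97495333, minus strand: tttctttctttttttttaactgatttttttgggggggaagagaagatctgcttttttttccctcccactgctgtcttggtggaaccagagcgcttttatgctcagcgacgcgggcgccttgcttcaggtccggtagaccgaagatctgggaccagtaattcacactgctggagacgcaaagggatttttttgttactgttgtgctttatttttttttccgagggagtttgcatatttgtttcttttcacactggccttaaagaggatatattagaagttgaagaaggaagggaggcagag
The Lhx6 window had 70.7% G and C, the Sox6 window 42.0% and the Meis1 window 43.7%, against a median of 51.7% over 33469 promoters of the same length. The Sox6 window held 3 matches, 1 to TAATTA and 2 to ACAATG, and no base of one match lay in another. TAATTA occurred in 5.36% of all promoter windows and ACAATG in 13.2%. None of the 4 motifs was found in the Lhx6, Meis1, Dlx1 or Npas1 windows. TGACAG occurred in 19.0% of all windows and TGATTGAT in 0.774%. Such matches describe the letters of the window only.

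After filtering, the METH library held 5159 nuclei and the saline library 6509, with 9 barcodes in both. Depth was higher in the METH library, with medians of 6110 and 4368 UMIs per GABAergic nucleus. Nuclei were clustered without the 9 genes and named from other markers, as types resembling the named subclass. The METH and saline libraries held 408 and 400 Pvalb, 352 and 345 Sst, 191 and 177 Vip, 107 and 126 Lamp5, and 78 and 67 Sncg nuclei. A further 151 and 106 GABAergic nuclei kept no subclass name. A group of 126 METH nuclei and 1 saline nucleus with raised Meis1 and Pbx3 is kept apart throughout and called the Meis1/Pbx3 nuclei. Levels are CPM, the UMIs of a gene summed over the nuclei of a group and scaled to a total of 1000000 UMIs in the group. Ranges in parentheses are exact 95% intervals, which cover counting error only. A single library per group gives no replicate error, and the differences below carry no test.

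Lhx6 was found in the Pvalb and Sst subclasses and was close to absent from the others. In Sst nuclei it stood at 68.4 CPM in the METH library (163 UMIs) and 63.8 CPM in the saline library (108 UMIs). In Pvalb nuclei it stood at 33.2 CPM (27.0 to 40.3) and 46.4 CPM (37.7 to 56.5). Sst ranked above Pvalb in both libraries, with intervals that did not overlap in METH and did in saline. No Lhx6 UMI was counted in 191 METH and 177 saline Vip nuclei, which allows shares of up to 1.57% and 1.69% of nuclei with a captured UMI. That limit does not cover nuclei that held Lhx6 RNA without a captured UMI. Taking 3 UMIs over the Vip group as a floor, the Sst level lay 23.1-fold above it in METH and 14.6-fold in saline. The exact upper limits of the Vip level were higher than that floor, at 3.65 CPM in METH and 5.38 CPM in saline. Lamp5 nuclei held 2 Lhx6 UMIs in METH and 0 in saline, and Sncg nuclei held 0 in both. Excitatory neurons, which do not use Lhx6, gave a UMI in 0.140% and 0.171% of nuclei at median depths of 9405 and 6415 UMIs. Lhx6 was sparse, and 33.8% of METH and 24.9% of saline Sst nuclei had a UMI of it, at median depths of 6339 and 4536 UMIs. Among Sst nuclei with at least 2000 UMIs thinned to 2000, these shares were 12.7% and 11.7%.

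Sox6 followed the same divide. Pvalb nuclei held 1510 CPM in METH (4599 UMIs) and 1544 CPM in saline (3294 UMIs). Sst nuclei held 1275 and 1349 CPM, below Pvalb in each library with intervals that did not overlap. Before any thinning, Sox6 was detected in 97.5% and 96.8% of Pvalb and 93.2% and 89.9% of Sst nuclei. Among nuclei with at least 2000 UMIs thinned to 2000 (403 of 408 and 394 of 400 Pvalb nuclei, 347 of 352 and 333 of 345 Sst nuclei), these shares were 90.3% and 89.8% of Pvalb and 84.7% and 83.8% of Sst nuclei. In Lamp5 nuclei Sox6 stood at 32.7 and 45.9 CPM, in Vip at 20.8 and 13.1 CPM, and in Sncg at 15.5 and 24.1 CPM. The next subclass, Lamp5, was 39.0-fold below Sst in METH and 29.4-fold in saline, and the 3 low subclasses overlapped with their neighbours in both. Sox6 is not confined to interneurons: oligodendrocyte precursors, the dividing glia that make myelinating cells, held 2011 and 1991 CPM, and astrocytes 1327 and 1527 CPM. Mature oligodendrocytes held 17.6 and 24.8 CPM, and excitatory neurons 6.95 and 12.1 CPM.

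Within the Sst subclass, Sox6 separated the sub-clusters. The sub-cluster led by Qrfpr and Adamts16 held 294 CPM (241 to 356) in METH and 209 CPM (151 to 282) in saline. The other Sst sub-clusters ranged from 892 to 2422 CPM in METH and from 789 to 2632 CPM in saline, the highest being a small one of 13 and 8 nuclei with Chodl and Npsr1. The Qrfpr sub-cluster was not low in Lhx6, with 70.1 CPM (45.4 to 103) and 82.7 CPM (48.2 to 132). A sub-cluster closest to Sst, led by Tnc and Trabd2b, was left unnamed because its 10 leading genes held no Sst marker and a mural one (Abcc9). It held Sox6 at 2383 and 1913 CPM and Lhx6 at 57.6 and 31.5 CPM. The Qrfpr sub-cluster was the lowest and the Chodl sub-cluster the highest for Sox6 in both libraries.

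Prox1 had the opposite pattern among interneurons. It stood at 230 CPM (201 to 261) in METH and 278 CPM (240 to 321) in saline Vip nuclei. Sncg nuclei held 213 and 261 CPM and Lamp5 nuclei 193 and 173 CPM. The order Vip, Sncg, Lamp5 was the same in both libraries, but each neighbouring pair had overlapping intervals. Pvalb nuclei held 3 and 5 Prox1 UMIs and Sst nuclei 2 and 4, or 0.985 and 2.34 CPM and 0.839 and 2.36 CPM. These levels lie near the 0.445 and 0.745 CPM of excitatory neurons. Mature oligodendrocytes also held Prox1, at 98.5 and 85.2 CPM. Among Vip sub-clusters Prox1 was lowest in the one led by Ltbp2 and Glyctk, which also held Calb2 (calretinin) among its leading genes, at 109 CPM (71.3 to 160) and 169 CPM (109 to 249). The sub-clusters led by Chat and by Penk held 265 and 340 CPM and 269 and 235 CPM.

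Npas1 did not follow the divide of Lhx6 and Prox1. It was high in 1 medial subclass and 2 caudal ones: Sncg with 310 and 272 CPM, Sst with 296 and 243 CPM, and Vip with 187 and 179 CPM. Sncg and Sst overlapped in both libraries, and Sst lay above Vip without overlap in both. Pvalb nuclei held 7.23 and 8.90 CPM and Lamp5 nuclei 5.68 and 11.9 CPM, which overlapped. Vip was 25.9-fold above the next subclass in METH and 15.1-fold above it in saline.

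The sub-clusters showed where Npas1 sat within these subclasses. Among Sst sub-clusters it reached 471 CPM (403 to 548) and 428 CPM (343 to 528) in the Qrfpr sub-cluster, the one with the least Sox6. It was 443 and 330 CPM in that led by Sema3a and Rbp4, 338 and 287 CPM in that led by Pappa2 and Prdm1, and 254 and 226 CPM in that led by Crhbp and Fanci. The sub-cluster led by Adgrv1 and Trpv4, which also held Calb1 (calbindin), was lower, at 52.0 CPM (30.8 to 82.2) and 41.7 CPM (21.6 to 72.9). That with Chodl was low too, at 49.8 CPM (16.2 to 116) from 5 UMIs in METH and 0 UMIs in saline. Among Vip sub-clusters, Npas1 was 357 and 364 CPM in that led by Ltbp2, where Prox1 was lowest, and 97.9 and 95.7 CPM in that led by Chat. The unnamed sub-cluster closest to Sst held 391 and 429 CPM, and the other unnamed one, led by AC099302.1 and Cxcl14 and closest to Sncg and Lamp5, held 337 and 262 CPM.

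**Figure D1:**
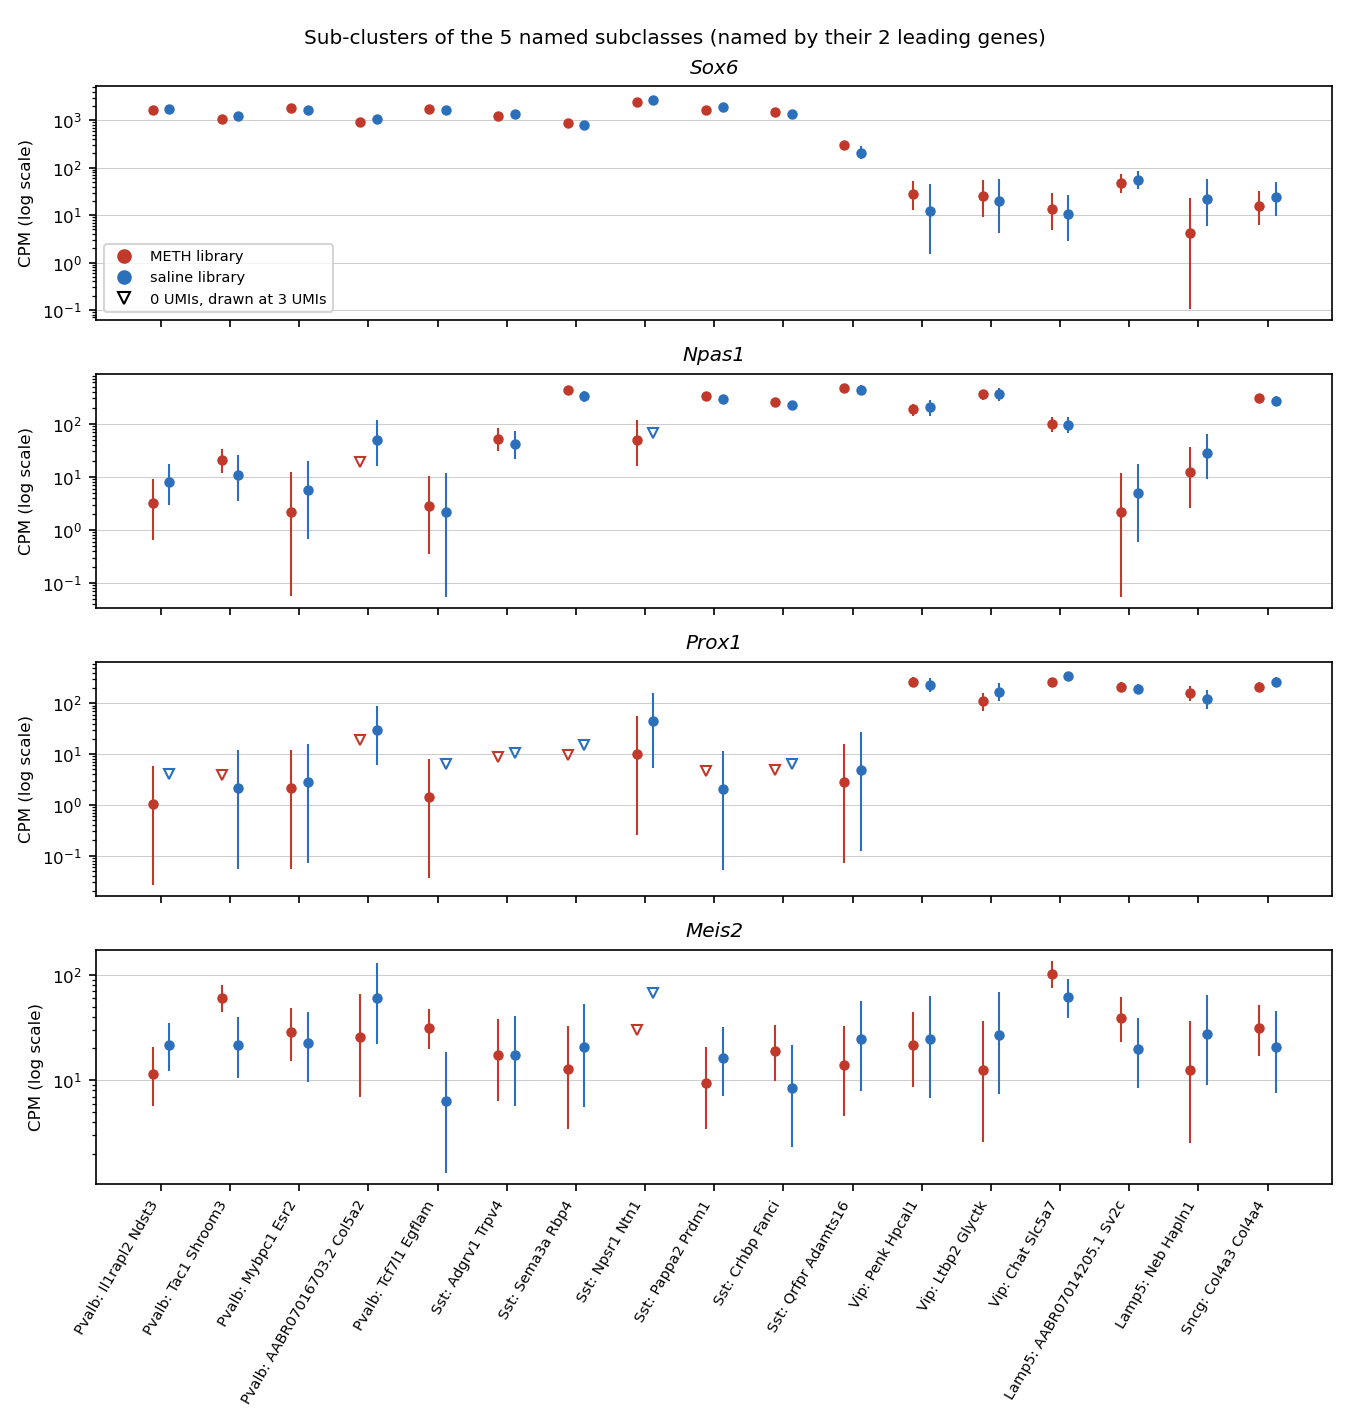
Levels of Sox6, Npas1, Prox1 and Meis2 (CPM, log axis) in each sub-cluster of the 5 named subclasses, with 95% counting intervals, METH in red, saline in blue and open triangles at 3 UMIs where none was counted. The Sst sub-cluster led by Qrfpr is low in Sox6 (294 and 209 CPM) and high in Npas1 (471 and 428 CPM) in both libraries.

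Dlx1 was present in all 5 subclasses at graded levels. It was highest in Vip (187 and 163 CPM) and Sncg (180 and 210 CPM), whose intervals overlapped. Lamp5 held 104 and 93.4 CPM and Sst 84.4 and 74.5 CPM, again overlapping. Pvalb was lowest, at 49.3 CPM (41.7 to 57.8) and 44.5 CPM (36.0 to 54.4), below Sst without overlap in both libraries. Excitatory neurons held 1.47 and 1.88 CPM. Dlx6 had too few UMIs for an order, with 33 UMIs in 1287 METH and 14 in 1221 saline GABAergic nuclei, and it was under 7 CPM in each subclass of both libraries. Excitatory neurons held 1 Dlx6 UMI in METH and 0 in saline. No source used here says whether the counting used strand, so reads of antisense transcripts at the Dlx loci cannot be told apart from those of the genes.

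Meis1 and Meis2 were low in these interneurons and higher in excitatory neurons or glia, while the Pbx3 levels lay closer together. Meis1 stood at 15.8 and 29.1 CPM in Vip nuclei, from 16 and 20 UMIs, and at 1.26 and 1.77 CPM in Sst nuclei. Vip was the highest subclass in both libraries, with intervals that overlapped those of the next subclass in both. A marker gate places each nucleus by its own marker UMIs without clusters, and with it Sncg was highest in METH at 34.6 CPM. Meis1 was higher in glia, with 216 and 237 CPM in astrocytes, 168 and 158 CPM in oligodendrocytes and 108 and 87.3 CPM in their precursors. Meis2 was at 55.4 and 45.2 CPM in Vip and between 13.9 and 31.9 CPM in the other subclasses of both libraries. Within Vip it was 102 CPM (74.9 to 136) and 61.2 CPM (38.8 to 91.8) in the Chat sub-cluster, against 12.6 to 27.0 CPM in the other sub-clusters of both libraries. A single METH nucleus of the Chat sub-cluster held 15 of the 56 Meis2 UMIs of Vip nuclei. The METH Vip level was 16.0 CPM thinned to 1000 UMIs and 30.1 CPM thinned to 2000 UMIs, against 34.3 and 24.8 CPM in Pvalb nuclei. The highest METH subclass for Meis2 was Sncg (31.1 CPM) without doublet removal, Pvalb (32.2 CPM) with stricter subclass names and Lamp5 (89.3 CPM) with the marker gate, so its order changed with the setting.

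Pbx3 summed highest in Sncg nuclei, at 137 and 117 CPM, above the next subclass without overlap in both libraries. The METH sum came from 17 of 78 nuclei, with 13 of 62 UMIs in a single nucleus, and in saline 10 of 34 UMIs lay in a single nucleus. Thinned to 2000 UMIs, METH Sncg nuclei held 40.5 CPM, below Vip nuclei at 65.6 CPM, and saline Sncg nuclei held 123 CPM. With the marker gate the highest METH subclass was Lamp5, at 126 CPM. Excitatory neurons held Pbx3 at 72.3 and 68.4 CPM and astrocytes at 88.3 and 57.5 CPM. The other 4 subclasses held 36.9 to 64.3 CPM in METH and 20.4 to 56.8 CPM in saline, and Lamp5 was the lowest in both.

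Excitatory neurons carried Meis2 at 612 CPM in METH and 562 CPM in saline, with a UMI in 89.9% and 82.3% of nuclei. The level differed between excitatory clusters. It was highest in the cluster led by Htr4 and Adamts18 (985 and 932 CPM) and lowest in that led by Vwa5b1 and Hgf (191 and 190 CPM). Pbx3 was 110 and 91.4 CPM in the former and 58.9 and 54.6 CPM in the latter, and its highest excitatory cluster was that led by Tmem26 and Nox3 (130 and 114 CPM). Astrocytes held Meis2 at 543 and 558 CPM and oligodendrocyte precursors at 509 and 363 CPM.

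**Figure D2:**
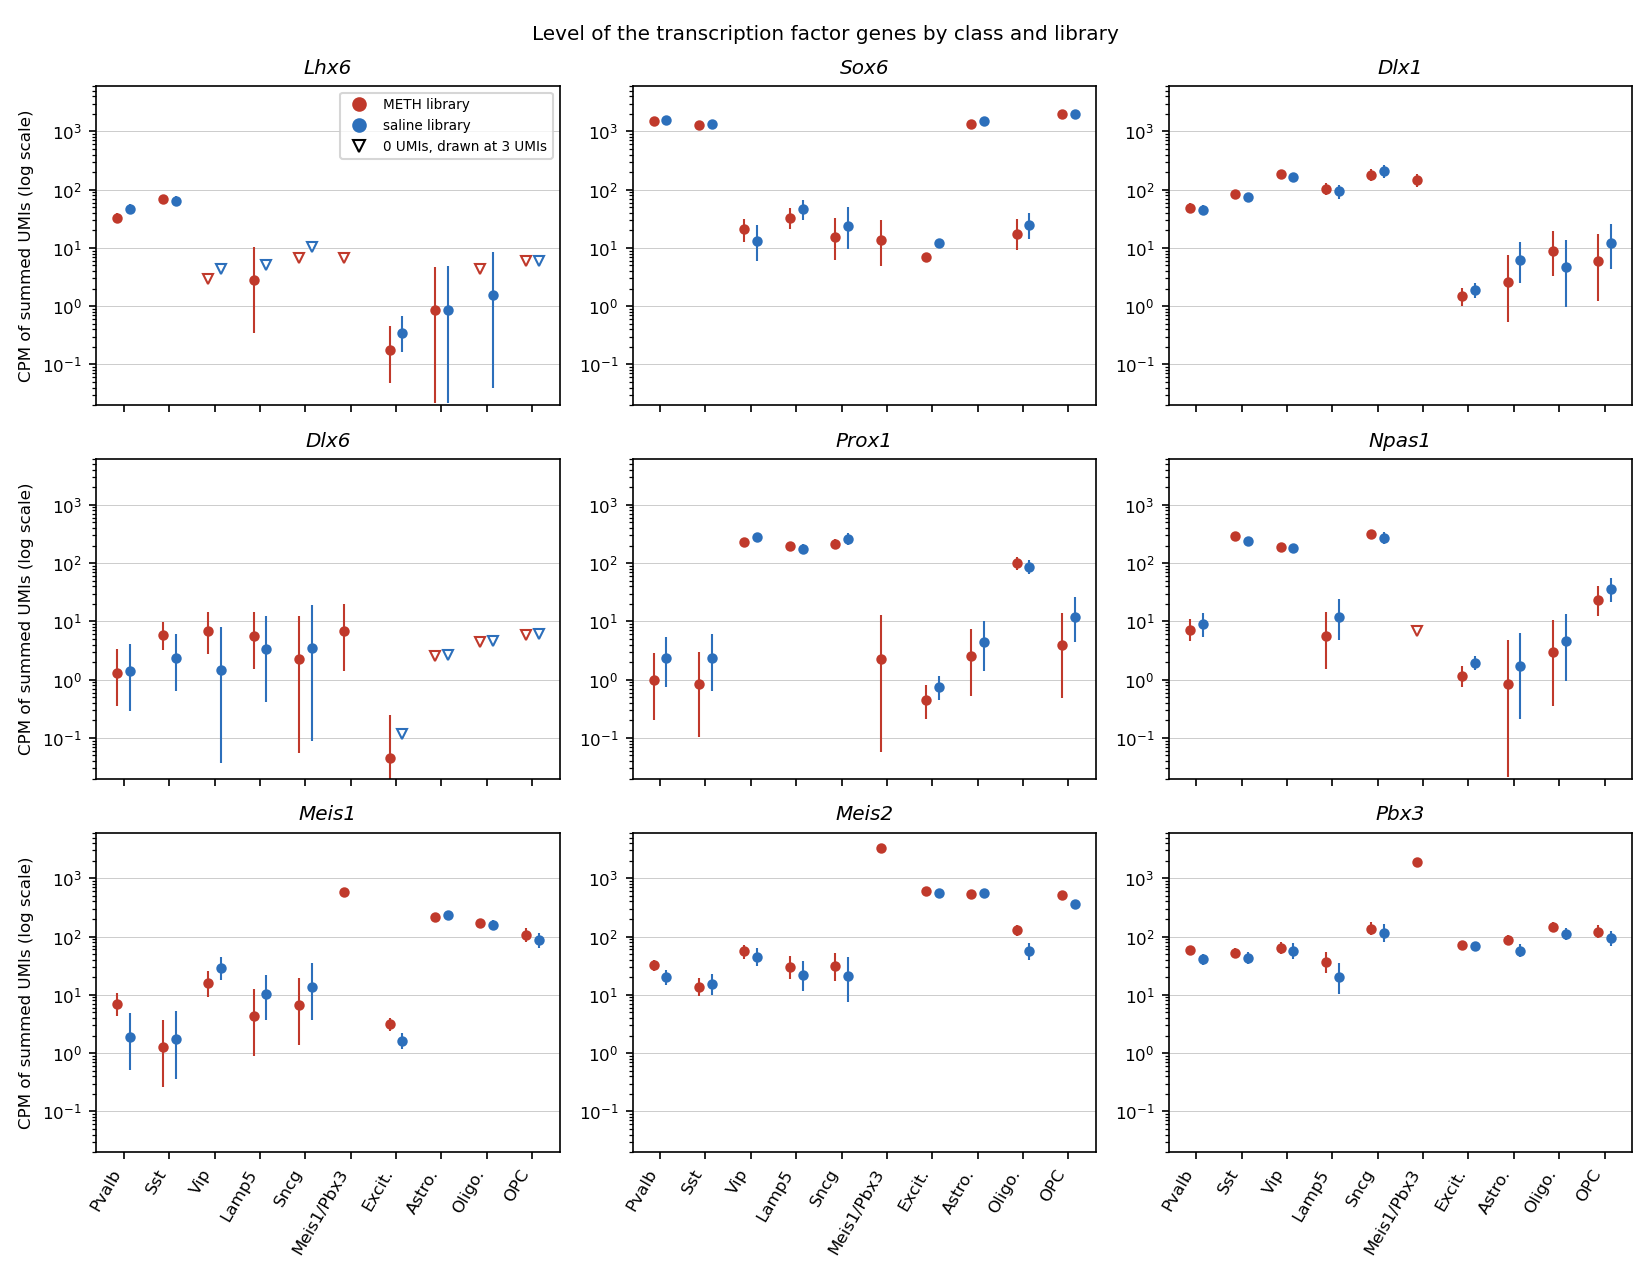
CPM (log axis, 95% counting intervals) of each gene in the 5 interneuron subclasses, the Meis1/Pbx3 nuclei of the METH library and 4 other classes, METH in red and saline in blue, with open triangles at 3 UMIs where none was counted and low interval ends beyond the axis. Lhx6 and Sox6 lie on the Pvalb and Sst side, Prox1 on the Vip, Lamp5 and Sncg side, and the TALE genes peak in the Meis1/Pbx3 nuclei.

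Single nuclei showed the same division as the sums. Of the GABAergic nuclei with an Lhx6 UMI, 215 of 226 in METH and 170 of 177 in saline also had Sox6, against 57.9% and 58.6% of the nuclei without Lhx6. Lhx6 and Prox1 were found together in 2 of 1287 METH and 0 of 1221 saline nuclei. The saline count allows a share of up to 0.246% of nuclei with both. Sox6 and Prox1 were found together in 22 and 20 nuclei, or 2.65% and 2.56% of the nuclei with Sox6, against 52.0% and 46.5% of the nuclei without it. With 2000 UMIs per nucleus, 3 nuclei in each library had both. Npas1 was found in 43.5% and 31.7% of nuclei with Prox1 and in 39.9% and 32.3% of nuclei without it. A nucleus without a UMI may still have held the RNA.

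The Meis1/Pbx3 nuclei were 2.44% (2.04 to 2.90) of the METH nuclei and 0.0154% (0.000389 to 0.0856) of the saline nuclei. They came from 2 sub-clusters with GABA synthesis genes in which Meis1 and Pbx3 both reached at least 0.5 of their highest sub-cluster level, so these 2 genes chose the nuclei and their levels are a description. The next sub-cluster below, a glutamatergic one of 17 METH nuclei, held Meis1 at 91.6 CPM and Pbx3 at 300 CPM. The larger sub-cluster had 113 METH nuclei and the saline nucleus, and Frmd7 and Trdn led it. The smaller had 13 METH nuclei, with Ddc, Trh and Pax6 among its leading genes. Their median depth, 3294.5 UMIs, was below that of the other GABAergic nuclei of the METH library, 6110 UMIs.

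In these METH nuclei Meis1 stood at 582 CPM, Meis2 at 3270 CPM and Pbx3 at 1939 CPM. The other METH GABAergic nuclei held 5.59, 29.1 and 59.9 CPM, and the saline GABAergic nuclei 6.27, 21.7 and 47.4 CPM. Meis2, which the choice of nuclei did not use, was 112-fold above the other METH GABAergic nuclei, a log2 ratio of 6.81 (6.62 to 7.01). The log2 ratio was 5.40 without doublet removal and 5.26 when nuclei were taken by a gate on Meis1 and Pbx3 UMIs. Meis2 was found in 122 of 126 nuclei, with a median of 10 UMIs and up to 42 UMIs per nucleus. All 3 TALE genes were found together in 83 of 126 nuclei, against 5 of 1287 other METH nuclei and 0 of 1221 saline nuclei. Meis2 was 3207 CPM in the larger and 3730 CPM in the smaller sub-cluster, and Meis1 572 and 656 CPM, each with overlapping intervals. Pbx3 was 2025 CPM (1886 to 2171) in the larger and 1312 CPM (1023 to 1658) in the smaller. The saline nucleus had 1123 UMIs, with 2 of Meis1, 2 of Pbx3 and 0 of Meis2, Gad1 and Gad2.

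The factors of cortical interneurons were low or missing there. Lhx6 and Npas1 had 0 UMIs in the 126 nuclei, which allows shares of up to 2.38% of nuclei with a captured UMI. Lhx6 was sparse at the greater depth too, with a UMI in 17.6% of the other METH GABAergic nuclei. Taking 3 UMIs over the Meis1/Pbx3 nuclei as a floor, the other METH GABAergic nuclei lay 4.97-fold above it for Lhx6 and 24.3-fold for Npas1. The bound of the log2 ratio nearest to 0 was -2.01 for Lhx6 and -4.30 for Npas1. Sox6 had 6 UMIs (13.6 CPM against 1011 CPM), a log2 ratio of -6.22 (-7.66 to -5.09), and Prox1 had 1 UMI. Dlx1 was kept, at 145 CPM (112 to 185) against 88.2 CPM, a log2 ratio of 0.72 (0.33 to 1.09). Dlx6 had 3 UMIs, or 6.79 CPM against 3.84 CPM. A gene was counted as measured with at least 100 UMIs over both groups and 20 CPM in either, and as called where the interval bound nearest to 0 passed 1.5-fold. Clustering and then Meis1 and Pbx3 chose these nuclei, so the counts are a description. Of the 8 measured genes of the set 3 were higher, 4 were lower and Dlx1 was not called. Meis1 and Pbx3 are among the 3 higher ones, and Meis1 had 257 UMIs here against 48 in the other nuclei. This size rule called 4.84% of 7768 measured genes higher and 7.12% lower.

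**Figure D3:**
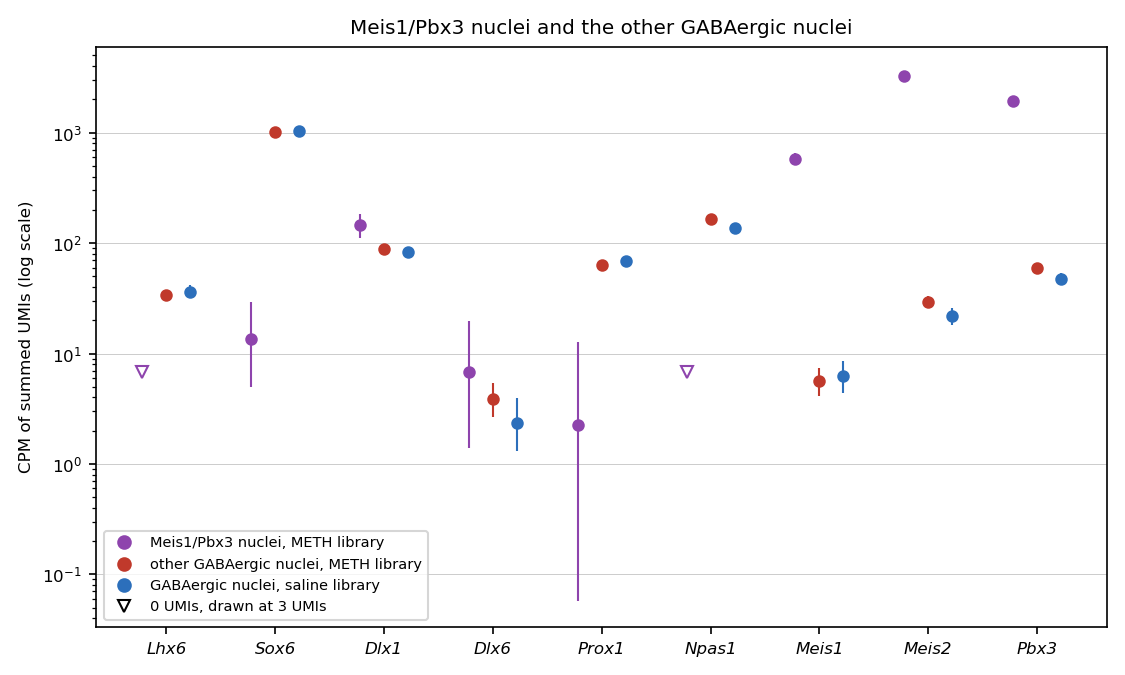
CPM (log axis, 95% counting intervals) of the 9 genes in the Meis1/Pbx3 nuclei of the METH library (purple), the other GABAergic nuclei of that library (red) and the saline GABAergic nuclei (blue), with open triangles at 3 UMIs where none was counted. The 3 TALE genes are raised and Lhx6, Sox6, Prox1 and Npas1 are low in purple, while Dlx1 lies at 145 CPM.

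Other factors of the same families were compared between these nuclei and the other METH GABAergic nuclei. Over all 7768 measured genes, the size rule called 4.84% higher and 7.12% lower. Of 13 further TALE genes 6 were measured, and 2 were higher and 2 lower. Pknox1, among the higher ones, was at 49.8 against 15.3 CPM. Of the lower ones, Pknox2 was at 106 against 283 CPM and Mkx at 6.79 against 37.2 CPM. Of 10 further medial eminence factors 7 were measured. Among those called, Etv1 was higher (276 against 40.9 CPM), and Satb1 (79.3 against 607 CPM) and Maf (3 against 391 UMIs) were lower. Of 8 caudal eminence factors 6 were measured and 1 was lower, Nr2f2, with 0 UMIs against 488 UMIs, while Nfix was at 24.9 against 55.3 CPM. Of 13 lateral eminence and olfactory factors 2 were measured, and Foxp2 was higher at 505 against 16.2 CPM, with Foxp1 at 129 and 151 CPM. Of the further SoxD, LIM, PAS and prospero family genes 6 were measured and Sox5 (113 against 239 CPM) and Arnt2 (63.4 against 475 CPM) were lower. Of the general GABAergic factors 2 were measured and 0 were called, among them Dlx5 at 20.4 and 16.7 CPM. The median log2 ratio was -0.78 for the TALE list, -0.60 for the caudal list, -0.33 for the medial list and 0.22 for the SoxD, LIM, PAS and prospero list, against -0.08 over all measured genes. It was 2.37 for the lateral and olfactory list and 0.18 for the general GABAergic list, each from 2 genes.

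Markers of other cell types were summed in the same groups. All 7 markers of olfactory bulb interneurons were found, and their sum was 1699 CPM in the Meis1/Pbx3 nuclei, 512 CPM in the other METH GABAergic nuclei and 498 CPM in the saline ones. Synpr (1282 CPM) and Etv1 made up most of it, with Th at 36.2 and Pax6 at 38.5 CPM. The 5 markers of intercalated or other lateral eminence neurons summed to 750, 109 and 99.5 CPM, mostly Foxp2, with Drd1 at 0. The 4 immature neuron markers in the gene table summed to 489, 152 and 153 CPM, mostly Dcx (430 against 92.2 CPM in the other METH GABAergic nuclei). Tubb3 was not raised, at 52.1 against 56.0 CPM. Sox11 and Igfbpl1 had 2 and 1 UMIs in the Meis1/Pbx3 nuclei, too few to compare, so the higher sum is that of Dcx alone. The 8 striatal projection neuron markers summed to 444, 526 and 771 CPM, mostly Pde10a and Foxp1. Of these markers Rgs9 was at 36.2 CPM against 7.11 CPM in the other METH GABAergic nuclei and Ppp1r1b at 6.79 against 1.75 CPM. Drd1 was at 0 against 0.932 CPM, which lies below the 6.79 CPM that 3 UMIs give in the Meis1/Pbx3 nuclei. The 6 septal or pallidal markers gave 145, 265 and 267 CPM, mostly Trpc4, with Lhx8 and Isl1 at 0 in all 3 groups. Zic4 was at 11.3 against 0.116 CPM and Zic1 at 6.79 CPM against 0, from few UMIs, and Chat was at 0 against 15.4 CPM. The 5 olfactory bulb projection neuron markers gave 145, 1436 and 1438 CPM, with Eomes, Tbx21 and Slc17a6 at 0. Glial markers were summed too. The 6 oligodendrocyte markers gave 256, 122 and 188 CPM, the 7 astrocyte markers 491, 334 and 356 CPM, mostly Slc4a4, and the 7 microglia markers 45.3, 14.3 and 29.7 CPM. The 6 oligodendrocyte precursor markers gave 274, 655 and 692 CPM. Gfap, Aldh1l1, Cspg4, Cx3cr1 and Aif1 were at 0 in the Meis1/Pbx3 nuclei. In the other METH GABAergic nuclei each of them lay below the 6.79 CPM that 3 UMIs give in the Meis1/Pbx3 nuclei. Absence of these markers can therefore not be told from a low level. Aqp4, Gja1, Csf1r and Ctss were among the astrocyte and microglia markers higher in the Meis1/Pbx3 nuclei than in the other METH GABAergic nuclei. Of these, Aqp4 (9.06 CPM) and Ctss (11.3 CPM) lay not far above the 3 UMI level. Slc1a2 (2.27 against 26.0 CPM) and Slc1a3 (11.3 against 24.7 CPM) were lower. C1qb, at 2.27 against 2.80 CPM, lay below the 3 UMI level in both groups and cannot be ordered. The part of other cell types or of neighbouring tissue in the result was not tested, and with 1 library per group dissection and treatment cannot be told apart. Besides the TALE genes, the genes highest in these nuclei by the interval bound were Trdn, Cpa6, Chst9, Plekha2, Lix1, Foxp2, Eya2, Klhl1, Peli2 and Ston2, from 539 CPM for Trdn to 165 CPM for Plekha2.

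With the Meis1/Pbx3 nuclei apart, none of the genes changed past the size rule between METH and saline in GABAergic nuclei. Of the 9 genes 7 were measured and 0 of 7 were called. The rule called 0.0265% of 7547 genes higher and 0.265% lower. Meis2 was 29.1 and 21.7 CPM, a log2 ratio of METH over saline of 0.42 (0.11 to 0.74), Pbx3 gave 0.34 (0.12 to 0.55) and Npas1 0.26 (0.13 to 0.38). Dlx1 (0.10), Sox6 (-0.03), Lhx6 (-0.11) and Prox1 (-0.14) had intervals that held 0. Thinning to 1000 UMIs left few UMIs and the draws differed. In one draw the ratio was -0.08 (-0.80 to 0.65) for Meis2 and -0.03 (-0.57 to 0.51) for Pbx3. In another, Meis2 was 30.4 and 23.8 CPM and Pbx3 57.8 and 51.0 CPM. The Npas1 ratio was 0.50 (0.35 to 0.65) with nuclei matched on their UMIs.

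The same comparison with the Meis1/Pbx3 nuclei included gave 3 of 8 measured genes higher and 0 lower, where the rule called 0.159% of 7552 genes higher and 0.265% lower. Meis1 and Pbx3 chose the added nuclei, which were nearly all from METH. The higher values of these genes follow from that choice and are a description. Meis1 was measured only with these nuclei included. Meis2 was 188 CPM in METH and 21.7 CPM in saline, a log2 ratio of 3.11 (2.85 to 3.38). Meis1 was 33.8 against 6.61 CPM (2.35, 1.87 to 2.87) and Pbx3 152 against 47.8 CPM (1.67, 1.48 to 1.86). Of 1694 Meis2 UMIs in 1413 METH GABAergic nuclei, 1444 lay in the 126 Meis1/Pbx3 nuclei.

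In the 5 subclasses, 19 gene and subclass pairs were measured and 0 were called. Over all measured genes, the rule called 0.0274% higher and 0.137% lower in Pvalb, 0.0304% and 0.319% in Sst, 0.0269% and 0.135% in Vip, 0.142% and 0.32% in Lamp5, and 0.0642% and 0.257% in Sncg nuclei. In the unnamed GABAergic nuclei 4 of the genes were measured and 0 called, where the rule called 0.0297% of all measured genes higher and 0.0891% lower. In Pvalb nuclei Lhx6 was 33.2 and 46.4 CPM, a log2 ratio of -0.48 (-0.90 to -0.07), Meis2 31.9 and 20.2 CPM (0.66, 0.13 to 1.21), and Pbx3 59.8 and 40.8 CPM (0.55, 0.18 to 0.94). The Meis2 ratio in Pvalb nuclei was 0.11 without doublet removal and 0.10 with nuclei matched on their UMIs. In Sst nuclei Npas1 was 296 and 243 CPM (0.29, 0.11 to 0.46) and Sox6 gave -0.08 (-0.16 to -0.003). The other 14 pairs, with log2 ratios between -0.30 and 0.30, had intervals that held 0. The widest of these intervals reach past 1.5-fold, such as that of Dlx1 in Sncg nuclei (-0.72 to 0.28).

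Outside the GABAergic nuclei, 13 gene and class pairs were measured and 1 was called. Meis2 in oligodendrocytes was 128 CPM (87 UMIs) in METH and 55.7 CPM (36 UMIs) in saline, a log2 ratio of 1.20 (0.62 to 1.80), where the rule called 0.271% of 2579 genes higher and 0.582% lower. The 2 highest METH nuclei held 17 of these UMIs each and the 10 highest 71.3% of them, against 44.4% in the 10 highest saline nuclei. Without the highest nucleus of each library the ratio was 1.02 (0.40 to 1.66) and no longer called. It was 0.32 with each nucleus weighted alike and -0.02 without doublet removal. The 4 excitatory markers summed to 77.9 CPM in METH and 164 CPM in saline oligodendrocytes, and their part in the result was not tested. In the other classes 0 of the measured pairs were called. Meis2 in mural nuclei had too few UMIs to count as measured, with 20 in METH (113 CPM) and 76 in saline (380 CPM). Its log2 ratio there was -1.75 (-2.54 to -1.03). The rule called 0.098% of genes higher and 0.224% lower in excitatory neurons, 0.0858% and 0.686% in astrocytes, and 0.0428% and 0% in oligodendrocyte precursors. In excitatory neurons Meis2 gave 0.12 (0.09 to 0.16), in precursors 0.49 (0.21 to 0.77) and in astrocytes -0.04 (-0.20 to 0.12). Sox6 in astrocytes gave -0.20 (-0.30 to -0.10) and Pbx3 in astrocytes 0.62 (0.16 to 1.09).

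**Figure D4:**
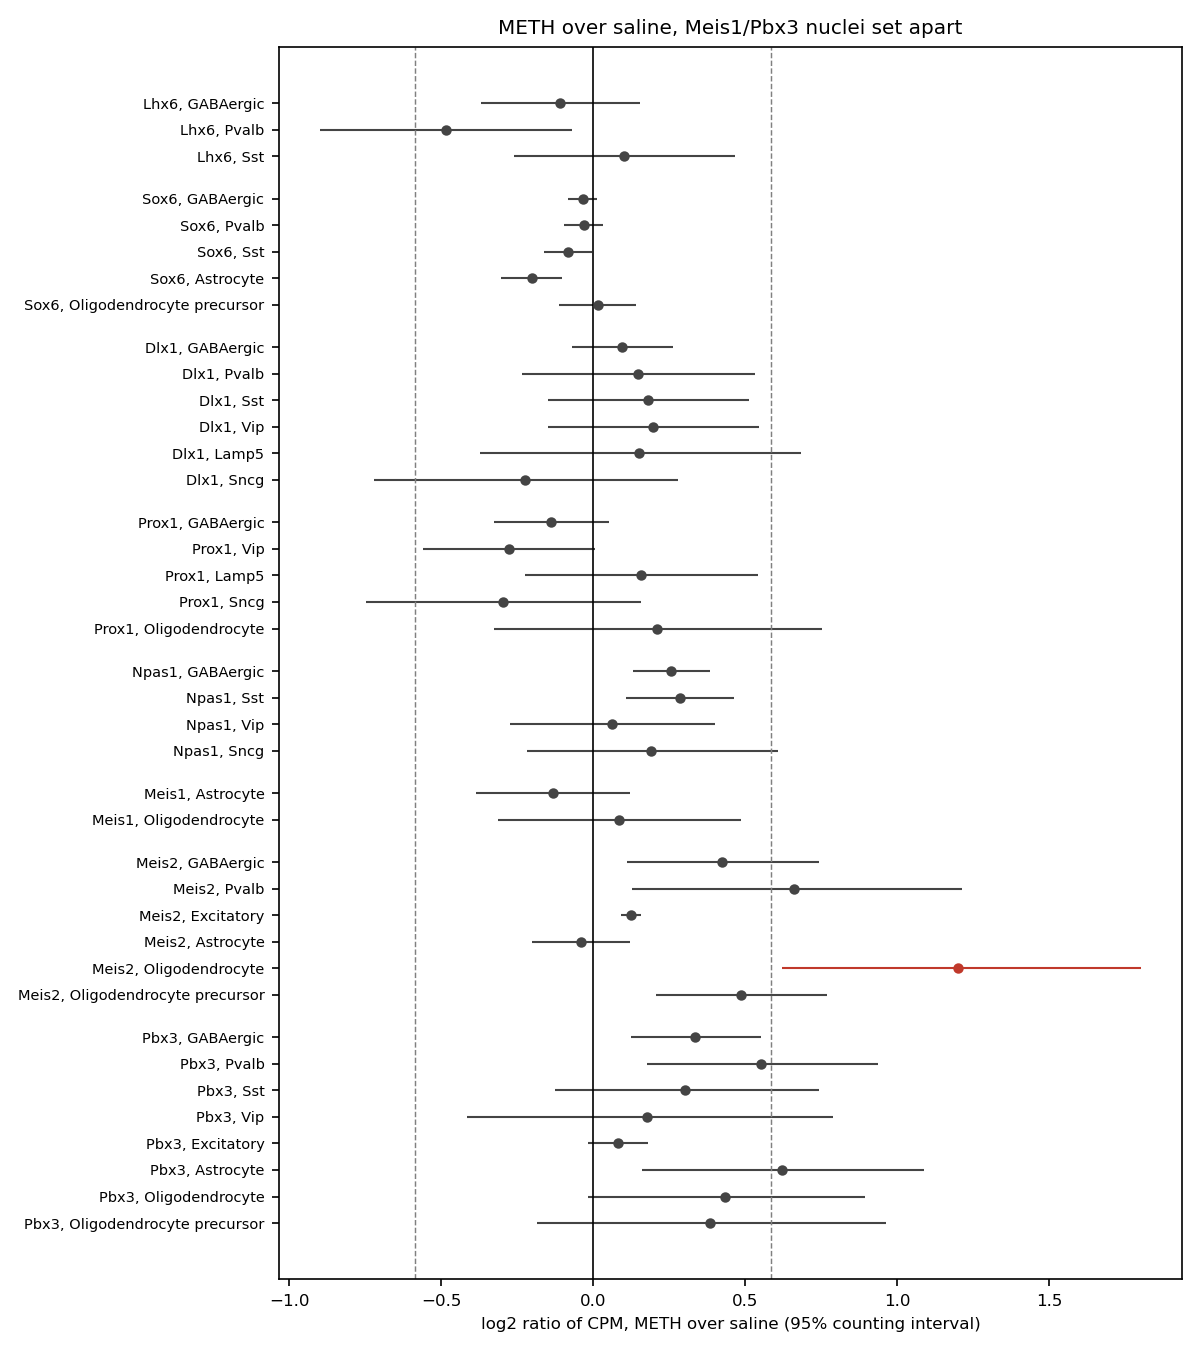
Log2 ratio of CPM, METH over saline, with 95% counting intervals for each measured gene and class, the Meis1/Pbx3 nuclei set apart; dashed lines mark 1.5-fold and red a pair called by the size rule. Among these pairs only Meis2 in oligodendrocytes (1.20) lies past the line with its whole interval.

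Companion factors of the same lineages were compared between the libraries in the same way. In the 6 lists of further factors, 27 genes were measured in the GABAergic nuclei apart from the Meis1/Pbx3 nuclei and 0 were called. The size rule called 0.0265% of all 7547 measured genes higher and 0.265% lower, so a count of 0 is near the share over all genes. The furthest from 0 were Zfhx4 with 114 and 130 UMIs (log2 ratio -0.73, -1.11 to -0.36), Etv1 at 40.9 and 55.4 CPM (-0.44, -0.66 to -0.22) and Nr2f2, a nuclear receptor of caudal eminence cells, at 56.8 and 43.0 CPM (0.40, 0.18 to 0.63). Maf gave -0.22, Lmo4 -0.22, Mkx -0.19, Meis3 0.17, Nr2f1 0.16, Npas2 -0.13 and Foxp1 -0.05. The list medians lay between -0.39, from 2 genes, and 0.07, against -0.01 over all measured genes.

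Genes with the most similar pattern were found by Pearson correlation of log2(CPM + 10) over 23 class and subclass points of both libraries, among 11900 genes. The points share libraries and depth, so the values are a description. Lhx6 was most like Mkx (0.90), Klf5 (0.89) and AC128610.1 (0.88), and Sox6 most like Nnat (0.85), Frmpd1 (0.84) and Il12a (0.83). Dlx1 was most like AABR07059679.1 (0.97), Vash2 (0.95) and Ankrd55 (0.95), and Dlx6 like Zcchc12, Taf1d and Gad1 (0.82, 0.82 and 0.81). The 3 genes most like Prox1 included Adarb2 (0.86) and Mob3b (0.84), and Npas1 was most like Shisa6 (0.87), Stk32b (0.86) and Col5a1 (0.86). Meis1 was most like Ston2 (0.85), Ubn1 (0.85) and Abca1 (0.83), Meis2 like Mdga1 (0.87), Kat6b (0.84) and Ptk2b (0.83), and Pbx3 like Eya2 (0.86), Trdn (0.84) and Cpa6 (0.79). Ston2, Eya2, Trdn and Cpa6 were also among the 10 genes highest in the Meis1/Pbx3 nuclei, which Meis1 and Pbx3 chose. Their likeness to Meis1 and Pbx3 is no separate result. Among the 9 genes themselves the highest value was that of Dlx1 with Dlx6 (0.84). The Dlx6 values rest on few UMIs, with 33 in METH and 14 in saline GABAergic nuclei apart from the Meis1/Pbx3 nuclei. Its highest subclass level, 6.93 CPM in METH Vip nuclei, lay below the 10 CPM added before the logarithm. The correlations of Dlx6, that with Dlx1 included, are therefore too uncertain to rank.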

How the data were processed

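The authors deposited raw UMI counts per gene and barcode for both libraries, which per the file headers came from Cell Ranger 7.0.0. The submitters' processing notes name hg38, while the genes carry rat Ensembl identifiers. The rat build and the use of strand: not given in the sources used here. Filters required 500 genes per barcode and allowed up to 5% mitochondrial UMIs. Scrublet marked 328 METH and 401 saline doublets, which were left out, and 5159 and 6509 nuclei remained. Nuclei were clustered without the 9 genes (scanpy 1.11.5, 2000 variable genes, 30 components, 15 neighbours, Leiden resolution 1, again within the GABAergic nuclei). Clusters were named from marker lists with a minimum scaled level of 0.35 and a margin of 0.1 to the second best subclass, and stayed unnamed where their 10 leading genes held more markers of another type, thresholds set after the clusters were seen, and each name stands for "like" that type. Sub-clusters with more Slc17a7 and Slc17a6 than Gad1 and Gad2 were set aside.

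Levels were sums of UMIs over nuclei in CPM with exact Poisson intervals, shares had Clopper-Pearson intervals, and ratios had exact conditional binomial intervals (scipy 1.17.1). UMIs totalled 44969322 in the METH and 42221257 in the saline library. The ratio script was tested on simulated data. Comparisons were limited to groups holding 50 or more nuclei per library. With 1 library per group no test was made. All 9 genes are named, with the 2 companions of each list furthest from 0 and up to 4 past the size rule, the 3 genes most alike each gene with at least 200 UMIs, and the 10 genes highest in the Meis1/Pbx3 nuclei. Some genes this rule or the lists hold are not reported here. Members and lists were chosen with earlier results of these data known, and the Meis1/Pbx3 nuclei were known from them. Alternatives covered doublets, gene minimum, clustering, a marker gate, thinning, matching, scaling (edgeR 4.0.16 TMM), weighting, the size rule and, added after the data were seen, stricter subclass names.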

Additional observations from a re-analysis of the deposited data

Results flagged for a closer look

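Beside the Meis1/Pbx3 nuclei, 78 METH nuclei and 0 saline nuclei fell in sub-clusters of the GABAergic group that held more glutamate transporter RNA than GABA synthesis RNA. They lie outside the comparisons above and drew attention because the saline library had none. Meis2 stood at 849 CPM (780 to 922) in them, from 561 UMIs, and was found in 80.8% of the nuclei. The sub-cluster led by Tfap2d and Ndst4 (61 nuclei) held Meis2 at 1034 CPM. That led by Ebf3, which also held Cdhr1 and Tbx21 (17 nuclei), held Meis2 at 16.7 CPM and Pbx3 at 300 CPM. The olfactory bulb projection neuron markers Cdhr1, Tbx21 and Slc17a6 stood at 144, 54.5 and 24.2 CPM over the 78 nuclei. Of the same list Eomes was at 0, and Reln was at 563 CPM against 1432 CPM in the other METH GABAergic nuclei. The 5 markers of this list summed to 785 CPM in the 78 nuclei and to 56.1 CPM in METH excitatory neurons. Reln, Cdhr1, Tbx21 and Slc17a6 were each higher in the 78 nuclei than in METH excitatory neurons. Slc17a6 was at 117 CPM in the Ebf3 sub-cluster and 3.70 CPM in the Tfap2d one. The part of olfactory bulb projection neurons in the result was not tested.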

How the results depend on the processing

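No paired analysis was possible because the labels give each group 1 library, replicate 1, and so fewer than 2 shared numbers. Of 391 METH over saline ratios recomputed, 357 stayed within the interval of the reported value, 33 moved outside it and 1 reversed, Meis2 in oligodendrocytes at -0.0185 without doublet removal. Of 312 subclass levels 48 moved outside their interval, 20 of them with the marker gate. Of 416 shares of nuclei 127 moved, 51 and 50 of them when thinned to 1000 and 2000 UMIs. Thinning removes UMIs, so a nucleus can lose a detected gene by it but cannot gain it. Of 48 ratios of the Meis1/Pbx3 nuclei to the others 9 moved. The cause of the other shifts was not tested. The count of called pairs in the 5 subclasses was 0, and 1 with a marker gate per nucleus (Prox1 in Sncg nuclei, -1.75). With the Meis1/Pbx3 nuclei included, 2 of the 7 GABAergic ratios were called, and Meis1, measured only then, was the eighth. The 1 saline Meis1/Pbx3 nucleus became 3 without doublet removal, 0 at 1000 genes and 8 with a gate on Meis1 and Pbx3 UMIs, where METH had 148, 124 and 95. Over all genes in GABAergic nuclei, 2 were called higher and 20 lower; at 30 UMIs with no CPM minimum these were 16 and 38, and by a 2-fold rule 0 and 4. Against the other METH GABAergic nuclei, 7 genes were called and 6 when thinned to 1000 UMIs or with the UMI gate, and the Meis2 log2 ratio was 5.40 without doublet removal and 5.26 with that gate. Sst was highest for Lhx6 and Pvalb for Sox6 in all 7 clustering settings of both libraries, and Vip for Prox1 in 7 of 7 METH and 6 of 7 saline settings. Depth limits Dlx6 most, with 33 METH and 14 saline UMIs in the GABAergic nuclei apart from the Meis1/Pbx3 nuclei.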
